A study of Mus musculus with 6 samples.

Results

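The constitutive subunits of the proteasome were measured with 40 of the 16281 probes of the array, and these probes stand for 33 genes. They are the probes whose platform gene symbol is Psma, Psmb, Psmc or Psmd followed by a number. Psmb8, Psmb9 and Psmb10, which encode the inducible catalytic subunits, were left out, as were the pseudogene Psmb5-ps and Psmc3ip, which is not a proteasome subunit. Of the 40 probes, 16 (15 genes) belong to the 20S core and 24 (18 genes) to the 19S cap. The rule reads gene symbols and no measured value. Psmd5, Psmd11 and Psmb11 were not analysed here, since no probe with a single symbol carried those names.

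The proteasome degrades proteins that carry ubiquitin. Its barrel-shaped core is built of outer alpha rings, which gate the entrance, and inner beta rings, which hold the proteolytic sites. The cap recognises ubiquitin, removes it and unfolds the substrate with a ring of ATPases. In cells exposed to interferons or inflammatory signals, Psmb8, Psmb9 and Psmb10 are known to take the places of the catalytic subunits Psmb5, Psmb6 and Psmb7 in newly built cores, which alters the peptides made for display on MHC class I. The other core and cap subunits are shared by both forms.

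RAW 264.7 is an established mouse macrophage line. Cells given lipopolysaccharide (LPS, 100 ng/ml) together with its serum carrier, LPS-binding protein (LBP, 100 pM), for 48 h were compared with cells left untreated for 48 h. Both RNAs were hybridised to the same two-colour array, with treated RNA in Cy5 on 3 arrays and in Cy3 on the other 3 arrays, and each orientation has a set 1, a set 2 and a set 3. The labels do not say that sets came from separate cultures, so p-values measure the spread between the 3 set means, which may be technical.

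Each value below is a log2 ratio, treated RNA over untreated RNA, averaged over both orientations of a set and given as the mean ± SD of the 3 sets (n = 3). No source used here states the base of the logarithm, which was taken as 2; were it the natural logarithm, the folds would be larger. Ratios listed as exactly 0 were treated as missing, and a probe was tested with limma where it had a value on all 6 arrays, which held for 12724 probes and for 39 of the 40 subunit probes. A probe is said to have risen or fallen where the Benjamini-Hochberg adjusted p over these 12724 probes was under 0.05. The arrays give ratios and not levels, so neither the abundance of a subunit nor the presence of cell type markers can be read from them. In such bulk RNA, fewer cells that express a gene and less of its RNA per cell cannot be told apart. Among 11 tested probes of macrophage markers 3 rose and 1 fell, or 36.4% called, against 27.1% of all tested probes. Adgre1, Fcgr1 and 1 probe of Ptprc rose, other Ptprc probes were not called, and Csf1r fell. Of 26 probes for markers of cells other than macrophages 17 were tested, and of these 2 rose and 0 fell, or 11.8% called. Those that rose were the B cell gene Cd79a and the proteoglycan gene Dcn, the highest at 2.68 ± 0.95. Tested probes of the B cell genes Cd79b and Ms4a1 and of the collagen genes Col1a1, Col1a2 and Col3a1 were not called. Between 7.97% and 17.8% of the values of an array were listed at 0. Il6, Il1b, Nos2 and Tnf, known to respond to LPS, were above 0 on all 6 arrays with each of their probes, which checks the sign of the ratio.

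Most constitutive subunits lay close to a ratio of 1 after 48 h of LPS and LBP. Of the 39 tested probes 3 rose (Psmb6, Psmd8 and 1 of 2 probes of Psmd10) and 1 fell (Psma8), which is 10.3% of them. Over all tested probes 27.1% were called, 14.8% as higher and 12.2% as lower. The mean ratios of the subunits ran from -0.31 to 0.50, or 0.804-fold to 1.41-fold, and 0 of 39 changed as much as 2-fold, against 3.5% of all tested probes. The median size of the ratio, without regard to sign, was 0.086 for the subunits and 0.16 for all tested probes. No test was made of these shares.

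The 95% confidence interval of each mean ratio from limma reflects the spread between set means, which limma draws towards that of other probes. Since that spread may be technical, the intervals cannot be read as the limit of a change across separate cultures. Each interval was taken by itself, with no adjustment for the number of probes. This interval lay between -1 and 1, that is within 2-fold either way, for all 39 subunit probes, against 93.9% of all tested probes. It lay between -0.5 and 0.5 for 36 of the 39. The median half-width was 0.20. Among the 35 subunit probes that were not called, the intervals reached as low as -0.49 (Psmd1) and as high as 0.48 (Psmd2 probe 18228).

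**Figure D1:**
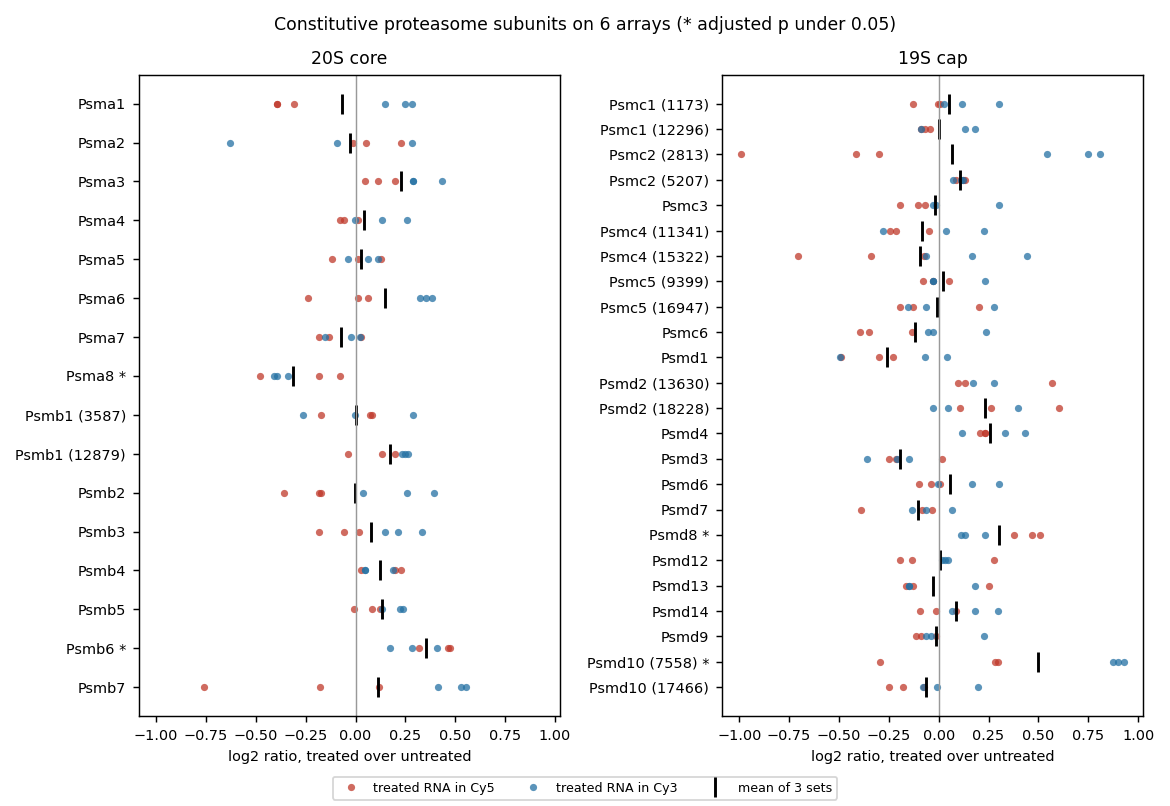
Log2 ratio of treated over untreated cells (x axis) for each subunit probe (y axis, probe number in brackets where a gene has several), with 1 point per array coloured by dye orientation and a black bar at the mean of the 3 sets, which Psmd2 probe 13630 lacks because 1 array was listed at 0. All means lie between -0.31 and 0.50, and the 4 probes with an asterisk have an adjusted p under 0.05.

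The 20S core had a median mean ratio of 0.061 and the 19S cap of 0.0028, against -0.010 for all tested probes. In the core 1 of 16 probes rose and 1 fell, and in the cap 2 of 23 rose and 0 fell. The set medians of the core averaged 0.069 ± 0.051 and those of the cap 0.0075 ± 0.086. The medians of core and cap thus lay closer together than the spread of the cap between sets. Counted by gene, with probes of a gene averaged, 4 of 33 subunit genes were called against 27.8% of all 9160 genes. These were Psmb6, Psmd8, Psmd4 and Psma8, so that Psmd4 took the place of Psmd10.

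**Figure D2:**
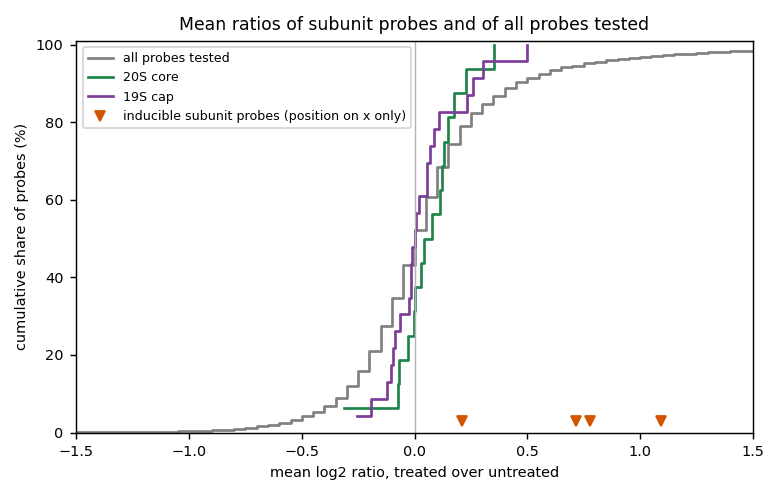
Cumulative share of probes (y axis, %) by mean log2 ratio of treated over untreated cells (x axis, shown from -1.5 to 1.5) for the 16 core probes, the 23 tested cap probes and all 12724 tested probes. Both subunit curves are steeper than that of all probes, and the triangles mark the 4 tested probes of the inducible subunits at 0.21 to 1.09.

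The catalytic subunits of the core are described first. Psmb6, which carries the caspase-like site, read 0.32, 0.47 and 0.48 on the Cy5 arrays (sets 1 to 3, treated RNA in Cy5) and 0.17, 0.41 and 0.28 on the Cy3 arrays (sets 1 to 3, treated RNA in Cy3). It was above 0 on all 6 arrays and rose by 0.35 ± 0.098 (1.28-fold, 95% interval 0.15 to 0.55, limma adjusted p = 0.0187). Psmb6 was the highest of all core probes.

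Psmb5, which carries the chymotrypsin-like site and is the main target of the drug bortezomib, read -0.0083, 0.12 and 0.085 on the Cy5 arrays and 0.13, 0.24 and 0.22 on the Cy3 arrays. All but 1 array were above 0, and the mean of 0.13 ± 0.061 did not pass (limma adjusted p = 0.296). The probe named for the pseudogene Psmb5-ps, a near copy of this gene, stood at 0.20 ± 0.042, and the probes cannot be assumed to read separate transcripts.

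Psmb7, which carries the trypsin-like site, read 0.12, -0.18 and -0.76 on the Cy5 arrays and 0.53, 0.41 and 0.56 on the Cy3 arrays. The orientations did not overlap, and the mean of 0.11 ± 0.21 did not pass (limma adjusted p = 0.470). Of the catalytic subunits, Psmb7 varied most between arrays and Psmb5 least.

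Of the inducible counterparts, Psmb8 and Psmb10 rose and Psmb9 did not pass. Psmb8, which replaces Psmb5, read 1.07, 1.34 and 1.32 on the Cy5 arrays and 0.90, 0.82 and 1.12 on the Cy3 arrays. It rose by 1.09 ± 0.12 (2.13-fold, limma adjusted p = 5.99e-05). Psmb10, which replaces Psmb7, rose with both of its probes, by 0.72 ± 0.17 and 0.78 ± 0.18, calls that ended when ratios listed at 0 were kept (limma adjusted p = 0.0527 and 0.0503).

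Psmb9, which replaces Psmb6, read 0.42, -0.13 and 0.17 on the Cy5 arrays and 0.28, 0.47 and 0.066 on the Cy3 arrays, and its mean of 0.21 ± 0.12 did not pass (limma adjusted p = 0.120). Within each array Psmb8 exceeded Psmb5 on 6 of 6 arrays, by 0.96 ± 0.090 on average, and Psmb10 exceeded Psmb7 on 6 of 6, by 0.63 ± 0.37. Psmb9 exceeded Psmb6 on 3 of 6 arrays, with a mean difference of -0.14 ± 0.21. An exact two-sided sign-flip permutation test over the 3 set means gave p = 0.25, p = 0.25 and p = 0.50 for these differences (0.375, 0.375 and 0.50 adjusted over the 3 pairs), and 0.25 is the smallest p that 3 sets allow.

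**Figure D3:**
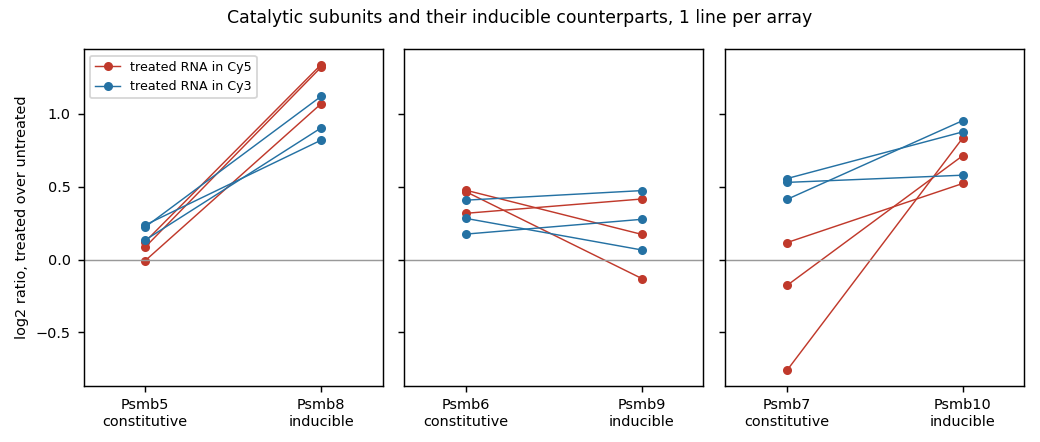
Log2 ratio of treated over untreated cells (y axis) for each constitutive catalytic subunit (left) and its inducible counterpart (right), with 1 line per array coloured by dye orientation and the probes of Psmb10 averaged. The lines rise on 6 of 6 arrays for Psmb8 over Psmb5 and for Psmb10 over Psmb7, and on 3 of 6 for Psmb9 over Psmb6.

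Promoter sequences are shown to set the known binding motif of Nfe2l1, a factor that drives proteasome subunit genes, beside the ratios. RefSeq windows of 300 bases on GRCm38.p6, from 250 bases before to 50 after the annotated start, were used for 26 of the 33 subunit genes (28 windows) and not for Psma8, Psmb1, Psmb2, Psmb7, Psmc3, Psmd3 and Psmd7. The windows were searched on both strands for TGACNNNGC, the core of the antioxidant response element, CCAAT, the box of NF-Y, and the core of the interferon-stimulated response element. A match describes the letters of the window and not a bound site. Each motif was counted by itself, whether or not its matches overlapped those of another.

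TGACNNNGC was found in 5 of 28 subunit windows (17.9%) and in 12.4% of all 32851 windows. CCAAT was found in 11 of 28 (39.3%) against 37.4%, and the interferon-stimulated core in 3 of 28 (10.7%), those of Psmb3, Psmd4 and Psmd9, against 3.44%. The genes with TGACNNNGC were Psmb5 (0.13), Psmb6 (0.35), Psmc6 (-0.12), Psmd9 (-0.015) and Psmd12 (0.0079), of which Psmb6 rose. The first base of the match lay at -47 in Psmb5, -9 in Psmb6 and -31 in Psmd9, counted from the annotated start, and at -227 in Psmc6 and -247 in Psmd12, where it was on the other strand.

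The whole windows of Psmb5 and Psmb6 are printed because both are catalytic and hold TGACNNNGC, here as TGACGTCGC and TGACGGAGC, while 1 of them rose. Sequences read 5′ to 3′ in the direction of the gene, and capitals mark matches to the motifs above on either strand.
Psmb5, chr14:54617946-54618245, minus strand: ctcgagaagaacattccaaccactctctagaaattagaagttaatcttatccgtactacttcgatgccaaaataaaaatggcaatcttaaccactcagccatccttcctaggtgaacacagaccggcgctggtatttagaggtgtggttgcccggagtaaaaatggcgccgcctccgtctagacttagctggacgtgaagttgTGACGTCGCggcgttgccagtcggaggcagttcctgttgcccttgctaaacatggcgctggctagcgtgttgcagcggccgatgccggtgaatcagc
Psmb6, chr11:70525107-70525406, plus strand: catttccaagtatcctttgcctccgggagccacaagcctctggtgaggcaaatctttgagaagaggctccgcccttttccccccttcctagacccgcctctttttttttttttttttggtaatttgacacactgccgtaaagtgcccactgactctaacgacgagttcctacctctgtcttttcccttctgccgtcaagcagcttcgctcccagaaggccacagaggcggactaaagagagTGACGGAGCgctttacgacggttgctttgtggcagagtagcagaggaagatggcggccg

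Those of Psmd8 and Psmd10 follow, since these genes had the cap probes that rose. The Psmd8 window held none of the motifs, and that of Psmd10 held CCAAT 3 times, 2 of them on the other strand.
Psmd8, chr7:29180624-29180923, minus strand: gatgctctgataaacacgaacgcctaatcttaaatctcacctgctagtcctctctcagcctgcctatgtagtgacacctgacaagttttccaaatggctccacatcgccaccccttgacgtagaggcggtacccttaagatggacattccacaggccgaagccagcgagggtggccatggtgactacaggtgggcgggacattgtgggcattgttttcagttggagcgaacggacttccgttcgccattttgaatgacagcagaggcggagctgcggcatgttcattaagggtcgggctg
Psmd10, chrX:140956662-140956961, minus strand: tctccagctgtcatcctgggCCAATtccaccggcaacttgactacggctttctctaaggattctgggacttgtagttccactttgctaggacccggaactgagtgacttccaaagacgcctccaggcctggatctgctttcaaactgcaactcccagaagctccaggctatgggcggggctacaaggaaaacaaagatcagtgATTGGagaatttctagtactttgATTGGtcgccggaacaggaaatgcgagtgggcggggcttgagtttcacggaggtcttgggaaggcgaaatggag

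For Psmc6, Psmd9 and Psmd12, whose ratios did not pass, only the stretch around TGACNNNGC is printed for comparison with Psmb6.
Psmc6, chr14:45329574-45329645, plus strand: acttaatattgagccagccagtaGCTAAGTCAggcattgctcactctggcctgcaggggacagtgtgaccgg
Psmd9, chr5:123228119-123228207, plus strand: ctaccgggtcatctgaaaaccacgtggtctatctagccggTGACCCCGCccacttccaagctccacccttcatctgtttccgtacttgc
Psmd12, chr11:107479278-107479329, plus strand: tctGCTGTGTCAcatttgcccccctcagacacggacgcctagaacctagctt

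The other beta subunits, which have no active site, gave 0 calls among 5 probes (limma, 0 with an unadjusted p under 0.05). Their means were 0.00026 ± 0.20 and 0.17 ± 0.056 for the 2 probes of Psmb1, -0.0044 ± 0.057 for Psmb2, 0.079 ± 0.035 for Psmb3 and 0.12 ± 0.015 for Psmb4. Psmb4 was above 0 on all 6 arrays without passing (limma adjusted p = 0.325). Its small SD does not make its interval narrow, since limma draws the spread of each probe towards that of the others, and the interval ran from -0.069 to 0.31.

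In the alpha rings 1 of 8 probes fell and 0 rose. Psma8, a close relative of Psma7 known from the testis, read -0.18, -0.48 and -0.080 on the Cy5 arrays and -0.34, -0.39 and -0.41 on the Cy3 arrays. It was below 0 on all 6 arrays and fell by 0.31 ± 0.11 (0.804-fold, 95% interval -0.52 to -0.11, limma adjusted p = 0.0314). Psma7 itself averaged -0.074 ± 0.025 and did not pass. Intensities were not used here, so it was not tested whether the Psma8 probe read above background or read Psma7 transcripts.

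Psma3 came next in the core after Psmb6, at 0.23 ± 0.025, above 0 on all 6 arrays (0.046, 0.11 and 0.20 on the Cy5 arrays, and 0.43, 0.29 and 0.29 on the Cy3 arrays). It did not pass (limma adjusted p = 0.0792), but it did when ratios listed at 0 were kept as values (adjusted p = 0.0381). The remaining alpha subunits stood at -0.070 ± 0.013 for Psma1, -0.028 ± 0.17 for Psma2, 0.043 ± 0.087 for Psma4, 0.027 ± 0.099 for Psma5 and 0.15 ± 0.084 for Psma6, and none of these 5 passed. The 95% interval of each held 0.

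The ATPases of the cap, Psmc1 to Psmc6, unfold substrates and open the gate of the core. Of their 10 probes 0 were called (limma, 0 with an unadjusted p under 0.05), and the means ran from -0.12 to 0.11. Psmc3 was at -0.016 ± 0.10 and Psmc6, the lowest, at -0.12 ± 0.15. Of these genes 4 had 2 probes, and each pair agreed within 0.051. The pairs were 0.053 and 0.0028 for Psmc1, 0.067 and 0.11 for Psmc2, -0.086 and -0.096 for Psmc4, and 0.019 and -0.011 for Psmc5.

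The 2 probes of Psmc2 gave like means from very unlike arrays. Probe 5207 read 0.089, 0.13 and 0.12 on the Cy5 arrays and 0.11, 0.073 and 0.12 on the Cy3 arrays, all within a range of 0.073 to 0.13. Probe 2813 read -0.30, -0.99 and -0.41 on the Cy5 arrays and 0.81, 0.75 and 0.54 on the Cy3 arrays. Probe 2813 thus went down on every array of one orientation and up on every array of the other.

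The remaining subunits of the base are the scaffolds Psmd1 and Psmd2, which hold the ATPase ring and bind shuttle proteins, and the ubiquitin receptor Psmd4. None of their 3 tested probes was called (limma, 2 with an unadjusted p under 0.05). Psmd4 was above 0 on all 6 arrays, from 0.12 to 0.43, and averaged 0.26 ± 0.079 (limma adjusted p = 0.0570, or 0.0484 over genes in place of probes). Psmd1 was below 0 on 5 of 6 arrays and averaged -0.26 ± 0.21 (limma adjusted p = 0.101).

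For Psmd2, probe 18228 averaged 0.23 ± 0.24 (limma adjusted p = 0.153), with its highest readings in set 3, at 0.60 with treated RNA in Cy5 and 0.40 in Cy3. Probe 13630 was listed at 0 on the set 2 array with treated RNA in Cy3 and was left out of the main test. On the other 5 arrays it read between 0.097 and 0.57, again highest in set 3. Averaged over the sets 1 and 3 it stood at 0.29 (limma adjusted p = 0.125).

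The lid removes ubiquitin chains from the substrate. Of its 7 probes 1 rose and 0 fell. Psmd8, a lid subunit that takes part in joining lid and base, read 0.47, 0.51 and 0.38 on the Cy5 arrays and 0.13, 0.23 and 0.11 on the Cy3 arrays. It was above 0 on all 6 arrays, with every Cy5 array above every Cy3 array, and rose by 0.30 ± 0.060 (1.24-fold, 95% interval 0.11 to 0.50, limma adjusted p = 0.0302).

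Psmd14, the deubiquitinating enzyme of the lid, averaged 0.087 ± 0.10 and its partner Psmd7 -0.11 ± 0.14. The structural subunits stood at -0.19 ± 0.12 for Psmd3, 0.055 ± 0.10 for Psmd6, 0.0079 ± 0.12 for Psmd12 and -0.026 ± 0.21 for Psmd13, and none of these 6 probes passed. Psmd12 and Psmd13 were highest on the set 3 array with treated RNA in Cy5, at 0.28 and 0.25.

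Psmd9 and Psmd10 are chaperones that guide assembly of the base and leave before the proteasome is complete. Psmd9 was at -0.015 ± 0.10. Psmd10, also known as gankyrin, gave unlike answers with its 2 probes. Probe 7558 read 0.30, 0.28 and -0.29 on the Cy5 arrays and 0.93, 0.90 and 0.87 on the Cy3 arrays, was above 0 on 5 of 6 arrays, and rose by 0.50 ± 0.18 (1.41-fold, 95% interval 0.27 to 0.72, limma adjusted p = 0.00665).

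Probe 17466 of Psmd10 read -0.071, -0.25 and -0.18 on the Cy5 arrays and -0.079, 0.20 and -0.0078 on the Cy3 arrays, and averaged -0.065 ± 0.036 without passing (limma adjusted p = 0.621). The probes differed by 0.56, by far the widest gap among the 6 genes with 2 tested probes, where the next widest was 0.17 for Psmb1. Averaged over both probes, Psmd10 stood at 0.22 ± 0.10 and was not called (limma adjusted p = 0.0945). Which probe reads the gene was not tested, because probe sequences were not used here.

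Each of the 4 calls was lost when set 2 was left out. Without set 2 limma called 0 of the 39 subunit probes (6 with an unadjusted p under 0.05, lowest adjusted p 0.0534), while 17.2% of all probes were called. Without set 1 it called Psmb6 and Psmd10, and without set 3 Psmd10 alone. With ratios listed at 0 kept as values, 2 of 40 subunit probes were called, Psma3 and Psmd8, against 8.64% of all 16281 probes. In no setting tried did the share called among the subunits exceed that over all probes of the same setting.

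The subunit probes shared a tilt with dye orientation. Over the 39 tested probes their median ratio was -0.072, -0.042 and -0.035 on the arrays with treated RNA in Cy5 and 0.033, 0.12 and 0.23 on those with it in Cy3, so the orientations did not overlap. Over all probes with a value the array medians stayed between -0.022 and 0.0096. The dye effect, the mean of the ratios of Cy5 over Cy3 without turning the sign, was below 0 for 30 of 39 subunit probes (76.9%) against 52% of all tested probes. A dye effect of equal size on both arrays of a set cancels in the set means used above. Whether it was equal was not tested.

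Tested by itself with limma, the dye effect passed for 0 of 39 subunit probes and for 0.181% of all tested probes. At an unadjusted p under 0.05 it stood at 9 of 39 subunit probes (23.1%), against 26.3% of all tested probes. The largest was that of Psmc2 probe 2813, at -0.63 (adjusted p = 0.0977). The set 3 array with treated RNA in Cy3 held the highest of the 6 readings for 14 of the 39 subunit probes. That count was not made over all tested probes. The part of labelling in these differences was not tested.

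**Figure D4:**
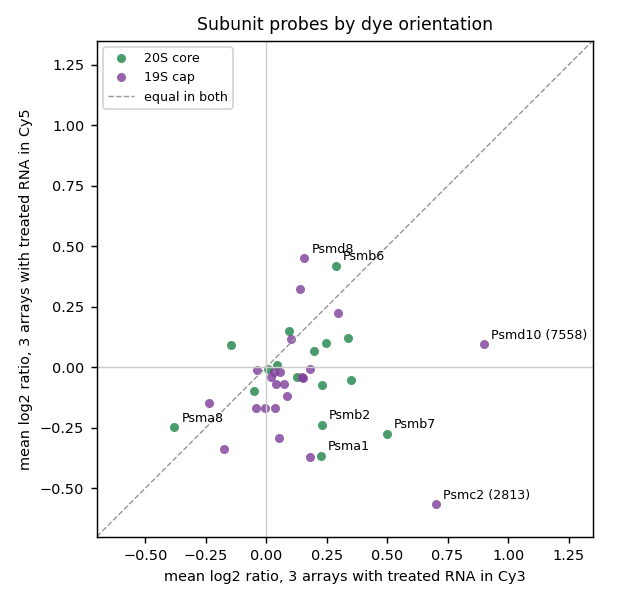
Mean log2 ratio of treated over untreated cells on the 3 arrays with treated RNA in Cy5 (y axis) against that on the 3 arrays with it in Cy3 (x axis), with 1 point per subunit probe and a dashed line where both are equal. Most points lie below the line, and Psmc2 probe 2813, Psmb7 and Psmd10 probe 7558 lie farthest from it.

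Other genes of the pathway were read from lists. Factors known to control proteasome subunit genes were called with 6 of 17 tested probes higher and 2 lower, 47.1% in all, against 27.1% of all tested probes (14.8% higher and 12.2% lower). Nfe2l1, the membrane-bound factor that raises subunit transcription when proteasome activity falls short, rose with both probes, by 0.58 ± 0.13 and 0.69 ± 0.22. Probe 4441 read 0.45, -0.14 and 0.27 on the Cy5 arrays and 0.99, 1.19 and 0.70 on the Cy3 arrays (limma adjusted p = 0.00225), so it was below 0 on 1 array and its orientations did not overlap. Probe 8028 was above 0 on all 6 arrays and read 0.81, 0.55 and 0.25 on the Cy5 arrays and 0.96, 0.91 and 0.65 on the Cy3 arrays (limma adjusted p = 0.0018).

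Of its dimer partners, Maff and Mafk rose by 0.40 ± 0.059 and 0.38 ± 0.17. Mafg stood at -0.11 ± 0.22 and did not pass (limma adjusted p = 0.481). Stat3, a signal-activated factor, was the highest of the list, at 0.84 ± 0.20 and 0.75 ± 0.087 with its 2 probes. The NF-Y subunits Nfya and Nfyc fell by 0.51 ± 0.16 and 0.36 ± 0.25, and Nfya was the lowest of the list. Nfyb, at -0.17 ± 0.12, did not pass (limma adjusted p = 0.205). Without set 2 the calls of Maff, Mafk and Nfyc ended (limma adjusted p = 0.0574, 0.0659 and 0.163), as did that of Nfyc with arrays scaled to one spread (0.0537). The call of Mafk also ended without set 3 (limma adjusted p = 0.123) and that of Nfyc without set 1 (0.203). With zeros kept, Nfe2l1 probe 8028, the first Stat3 probe and Nfya no longer passed either (0.0702, 0.0524 and 0.0710), nor did Mafk and Nfyc. Nfe2l2, the oxidant-responsive relative of Nfe2l1, was at -0.16 ± 0.061 and did not pass.

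Among assembly factors and other partners of the proteasome 3 of 18 tested probes fell (16.7%) and 0 rose, against 12.2% and 14.8% of all tested probes. The shuttle protein Ubqln4, which carries ubiquitinated proteins to the cap, fell by 0.50 ± 0.12 and was the lowest, followed by Zfand2a at -0.37 ± 0.18 and 1 of 2 probes of Ubqln2 at -0.36 ± 0.21. The calls of Zfand2a and Ubqln2 ended without set 2 (limma adjusted p = 0.124 and 0.142), and all 3 ended with zeros kept (0.0527 to 0.151). That of Zfand2a also ended without set 1 (limma adjusted p = 0.0900) and that of Ubqln2 without set 3 (0.135). The core assembly chaperones Pomp (0.14 ± 0.20), Psmg1 (-0.22 ± 0.13), Psmg2 (-0.19 ± 0.11) and Psmg3 (-0.21 ± 0.31) did not pass. Neither did Psme4 (0.14 ± 0.052) and Psme3 (-0.16 ± 0.14), which encode alternative caps.

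Of the inducible subunits and the 11S activator, 3 of 4 tested probes rose and 0 fell, where 14.8% of all tested probes rose. Psme1 was listed at 0 on all 6 arrays. A probe named for Psme2b, a retrogene copy of the activator gene Psme2, rose by 0.68 ± 0.12 (limma adjusted p = 9.2e-04), and signals of both copies cannot be told apart here. Probes of ubiquitin and ubiquitin-activating enzyme genes from a further list were not analysed here.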

How the data were processed

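The authors deposited 1 log ratio of Cy5 over Cy3 per probe and array, for 6 two-colour arrays of RAW 264.7 cells. The deposited values were treated as log2, a base that no source used here states. The dyes were taken per the labels. How background was corrected and ratios normalized, and on which scanner, is not stated in the labels or headers. The deposited median was 0 on every array, and no intensity was used, so the number of arrays limits the precision.

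The sign was turned on the 3 arrays with treated RNA in Cy3. Deposited ratios correlated at 0.73 to 0.81 within an orientation and at -0.69 to -0.44 between orientations. Exact zeros were set to missing, both orientations of a set were averaged, and limma tested whether the mean of the 3 sets differed from 0 (version 3.58.1 in R 4.3.3; lmFit, eBayes, two-sided, Benjamini-Hochberg over all probes). Counting a set as 1 replicate was a choice. The procedure was run on simulated data in which the arrays of a set shared no noise. Recovery was required there only for changes of at least 2-fold, larger than those of the called subunits. No result above rests on that run.

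Probes were named through the platform annotation (13738 with 1 symbol, 52 with several, 2491 with none); all 40 subunit probes were found in RefSeq by gene ID, with 0 symbols changed. Members, lists and tests were chosen with earlier results of these data known. Every member is named. The value on every array is given for called subunit probes, catalytic subunits and some others picked after their values were seen. The highest and lowest called probes of each list are named. Alternatives were: zeros kept, a value in at least 2 sets, 6 separate arrays, the set as a block, other centring, other scaling, robust eBayes, genes in place of probes, and each set left out.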

Additional observations from a re-analysis of the deposited data

Results flagged for a closer look

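Of the subunit probes, 3 read below 0 on every array with treated RNA in Cy5 and above 0 on every array with it in Cy3: Psma1, Psmb2 and Psmc2 probe 2813. Their dye effects were -0.30, -0.23 and -0.63, and none passed the limma test of the dye effect (adjusted p = 0.0977, 0.133 and 0.0977). Readings that opposed each other by orientation in this way, in either direction, were seen for 7.69% of subunit probes and 7.21% of all tested probes.

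Dixon's criterion was applied to each of the 40 subunit probes without regard to dye orientation, and not to all probes. A single array stood far from the other 5 in 2 cases among the 40 probes, about the 1 in 20 that chance alone is set to give. Both were on the set 3 array with treated RNA in Cy3. Psmc3 read 0.30 there against -0.19 to -0.012 elsewhere, and Psmd9 read 0.22 against -0.11 to -0.014.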

How the results depend on the processing

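Separate arrays, the set as a block and robust eBayes leave the mean ratios as they are, so they could not move the core and cap medians. Zeros kept and a value in at least 2 sets could not move the core median either. With 1 set left out, the core median ran from 0.054 to 0.095 and the cap median from -0.050 to 0.039. Those shifts were below the spread between sets, but the fits share sets with the main result, so this is no independent check. Other centring and scaling moved the medians by less than that spread. Medians over genes were not computed. With zeros kept as values, where 1011 probes listed at 0 on all arrays enter the fit, limma called 1407 probes (against 3443), 1 of the core, 1 of the cap, 1 inducible probe, 0 partner probes (8 with an unadjusted p under 0.05, against 6), 3 controlling factors, 1576 genes (against 2542) and 0 dye effects (3922 with an unadjusted p under 0.05, against 3348). A value in at least 2 sets gave 38 dye effects (against 23).

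With 1 set left out, the counts ran from 2191 to 2655 probes, 0 to 1 in the core and in the cap (limma; 2 core probes had an unadjusted p under 0.05 in each case, and 3, 4 and 4 cap probes without set 1, 2 and 3), 1 to 3 partners, 5 to 8 controlling factors and 0 to 30 dye effects, with 0 without set 1 (limma, 1860 at an unadjusted p under 0.05). Of the subunit probes that were not called, 8, 7 and 4 changed sign without set 1, 2 and 3. No called value reversed.

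Whether set numbers pair the arrays was not tested. Deviations from the orientation mean correlated at 0.53, 0.077 and 0.17 for arrays with 1 set number. For arrays of different sets and opposite orientation they correlated at -0.35 to 0.13, and 5 of 6 arrays matched their own number best. Treating the 6 arrays as separate, with no replicate block, gave 4293 probes, 3 in the core, 4 in the cap and 5 partners. With the set as a replicate block limma called 3405 probes, 2 in the core and 3 in the cap, where Psmd4 was added. Scaling, centring and robust eBayes kept the same 4 subunit calls. Counting genes in place of probes lost Psmd10 and added Psmd4. The missing intensities limit what can be said of faint probes.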
